A study of Mus musculus with 21 samples.

Results

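Macrophages recognise dying cells through receptors and bridging proteins, and 9 mouse genes of this system were followed across sorted heart macrophages and spleen monocytes. The genes were the TAM receptors Mertk and Axl, their ligands Gas6 and Pros1, the bridging protein Mfge8, and the scavenger receptors Cd36, Stab1, Lrp1 and Msr1. They were taken by symbol from the 27179 gene IDs of the count table. Each of the 9 was found once, and each was among the 13275 genes with enough counts to be tested. RNA was sequenced from 21 libraries of sorted cells from C57BL/6 mice, 3 libraries in each of 7 groups, and each group came from 3 pools of mice. CAWS, a water-soluble complex from Candida albicans used in mice to model the coronary arteritis of Kawasaki disease, had been given to the donors of 3 groups of cardiac macrophages: CAWS R1 (Ccr2-negative, MHC-II low), CAWS R2 (Ccr2-negative, MHC-II high) and CAWS R3 (Ccr2-positive, MHC-II high). The same R1, R2 and R3 sorts from hearts of naive donors made up another 3 groups. The last group held Ccr2-positive monocytes from spleens of naive donors, so a contrast of heart macrophages with monocytes is also one of heart with spleen.

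A dying cell turns phosphatidylserine to the outside of its membrane, where it serves as a signal to be eaten. Gas6 and protein S, the product of Pros1, attach to this lipid and switch on TAM receptor tyrosine kinases on the phagocyte, while Mfge8 ties the same lipid to integrins that contain the alpha v chain. Cd36, Stab1, Lrp1 and Msr1 are receptors that take up lipoproteins, matrix proteins and debris as well as dying cells. In the mouse heart, Mertk on macrophages is known for the clearance of dead cardiomyocytes.

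Promoter sequences are shown for the 4 genes whose CAWS difference in R3 stood apart from that in both R1 and R2, as given further on: Cd36, Mfge8, Gas6 and Pros1. RefSeq promoter windows of build GRCm38.p6, 250 bases before to 50 bases after the annotated start, were at hand for 8 of the 9 genes (Msr1 is named only). They run 5′ to 3′ on the strand of the gene, and capitals mark matches on either strand to 7 motifs: the E-box CACGTG, the PU.1 core GAGGAAGT, the AP-1 site TGANTCA, the nuclear receptor element AGGTCA, the MAF element TGCTGAC, the TATA box with the letters TATAAA and the Sp1 GC box with the letters GGGCGG. The windows are chr5:17835847-17836146 on the minus strand for Cd36, chr7:79149011-79149310 on the minus strand for Mfge8, chr8:13494486-13494785 on the minus strand for Gas6 and chr16:62854057-62854356 on the plus strand for Pros1.
Cd36: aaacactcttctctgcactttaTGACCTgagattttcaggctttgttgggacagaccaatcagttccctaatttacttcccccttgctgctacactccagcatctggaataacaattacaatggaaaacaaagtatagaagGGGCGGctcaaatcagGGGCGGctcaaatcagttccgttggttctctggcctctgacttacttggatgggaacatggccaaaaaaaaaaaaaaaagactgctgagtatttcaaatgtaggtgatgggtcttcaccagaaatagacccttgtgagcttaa
Mfge8: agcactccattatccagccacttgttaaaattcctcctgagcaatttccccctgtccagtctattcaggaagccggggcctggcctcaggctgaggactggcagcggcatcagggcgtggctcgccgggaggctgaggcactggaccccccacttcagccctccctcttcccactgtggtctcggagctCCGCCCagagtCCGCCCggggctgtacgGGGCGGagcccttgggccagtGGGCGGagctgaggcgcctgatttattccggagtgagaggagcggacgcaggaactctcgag
Gas6: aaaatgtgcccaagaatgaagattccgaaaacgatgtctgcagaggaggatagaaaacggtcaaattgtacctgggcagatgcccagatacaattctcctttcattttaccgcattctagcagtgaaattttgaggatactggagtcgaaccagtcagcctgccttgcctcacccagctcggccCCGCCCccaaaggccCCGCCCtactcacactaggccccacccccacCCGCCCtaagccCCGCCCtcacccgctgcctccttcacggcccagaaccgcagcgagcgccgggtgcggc
Pros1: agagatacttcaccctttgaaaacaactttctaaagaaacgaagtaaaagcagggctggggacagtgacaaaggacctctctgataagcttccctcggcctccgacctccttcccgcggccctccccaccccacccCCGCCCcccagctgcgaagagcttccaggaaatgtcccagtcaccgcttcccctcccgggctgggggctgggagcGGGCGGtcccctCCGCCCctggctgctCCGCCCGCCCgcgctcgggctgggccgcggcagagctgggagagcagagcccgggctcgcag
The GC box was the motif these 4 windows had in common, with 2 matches in Cd36, 4 in Mfge8, 4 in Gas6 and 5 in Pros1, of which the last 2 in Pros1 overlap. It was also matched in Mertk, Axl and Lrp1, and 35.9% of the 27025 promoter windows of the same length held it. Cd36 alone of the 8 windows held the nuclear receptor element, TGACCT on the printed strand, at bases -228 to -223 from the start, and 16% of all windows held that motif. The other 5 motifs had no match in the 8 windows, and they were matched in 7.24% (CACGTG), 3.28% (GAGGAAGT), 7.93% (TGANTCA), 4.58% (TGCTGAC) and 14.2% (TATAAA) of all windows. The Cd36 window lies inside the annotated gene, which runs from 17781690 to 17888959 on chromosome 5, so it covers 1 of the gene's start sites.

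Total counts ran from 12800136 to 23006155 per library. Macrophage markers were present in all heart groups: group means of Adgre1 ran from 1705 CPM in naive R3 to 2620.5 CPM in CAWS R2, against 579 CPM in the monocytes, and those of Csf1r from 4505 CPM in CAWS R3 to 8132 CPM in naive R2, against 3378 CPM in the monocytes. CPM are counts scaled to a common library size with TMM factors. A list of 9 monocyte markers followed the Ccr2 sort, with summed levels from 3584 to 4262 CPM in CAWS R3, from 2089 to 2672 CPM in naive R3 and at most 336 CPM in each R1 and R2 library. Within their groups 3 libraries stood apart. Naive R3 replicate 3 had 8369 CPM of 10 resident macrophage markers, against 4792 and 5045 CPM in the other naive R3 libraries. CAWS R1 replicate 2 had 259 CPM of monocyte markers, against 105 and 67.3 CPM in the other CAWS R1 libraries, and monocyte replicate 2 had the lowest Lrp1 of all libraries. Naive R3 replicate 2 carried 241 CPM of fibroblast markers, against 15.9 and 23.3 CPM in the other naive R3 libraries.

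CAWS R3 cells had less RNA of 6 of the 9 genes than naive R3 cells: Cd36, Gas6, Mfge8, Stab1, Pros1 and Axl. Of all genes tested, 15% passed the test in this comparison and 8.29% were lower. A gene passed with an adjusted p under 0.05, and all log2 fold changes below are given with their standard error. The median log2 fold change was -0.91 over the 9 genes, beside -0.06 over all genes tested. In R2, Pros1 was the single gene of the 9 past the test, and it fell (10.3% of all genes passed). In R1, edgeR put 0 of the 9 past the test, where 8.94% of all genes passed. In that comparison 3 of the 9 had an unadjusted p under 0.05, and DESeq2 and limma voom each called 1 of them, Pros1. When only the R1 groups entered the fit, 4 passed: Axl higher (adjusted p = 0.0194), and Gas6 (adjusted p = 0.00811), Pros1 (adjusted p = 0.0344) and Stab1 (adjusted p = 0.0389) lower. The share of all genes passing in that fit was not counted. Without monocyte replicate 2, Axl (adjusted p = 0.0356) and Pros1 (adjusted p = 0.0285) passed, and without naive R1 replicate 1, Pros1 did (adjusted p = 0.0495). In bulk samples such as these, fewer cells of a type and less RNA per cell cannot be told apart.

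**Figure D1:**
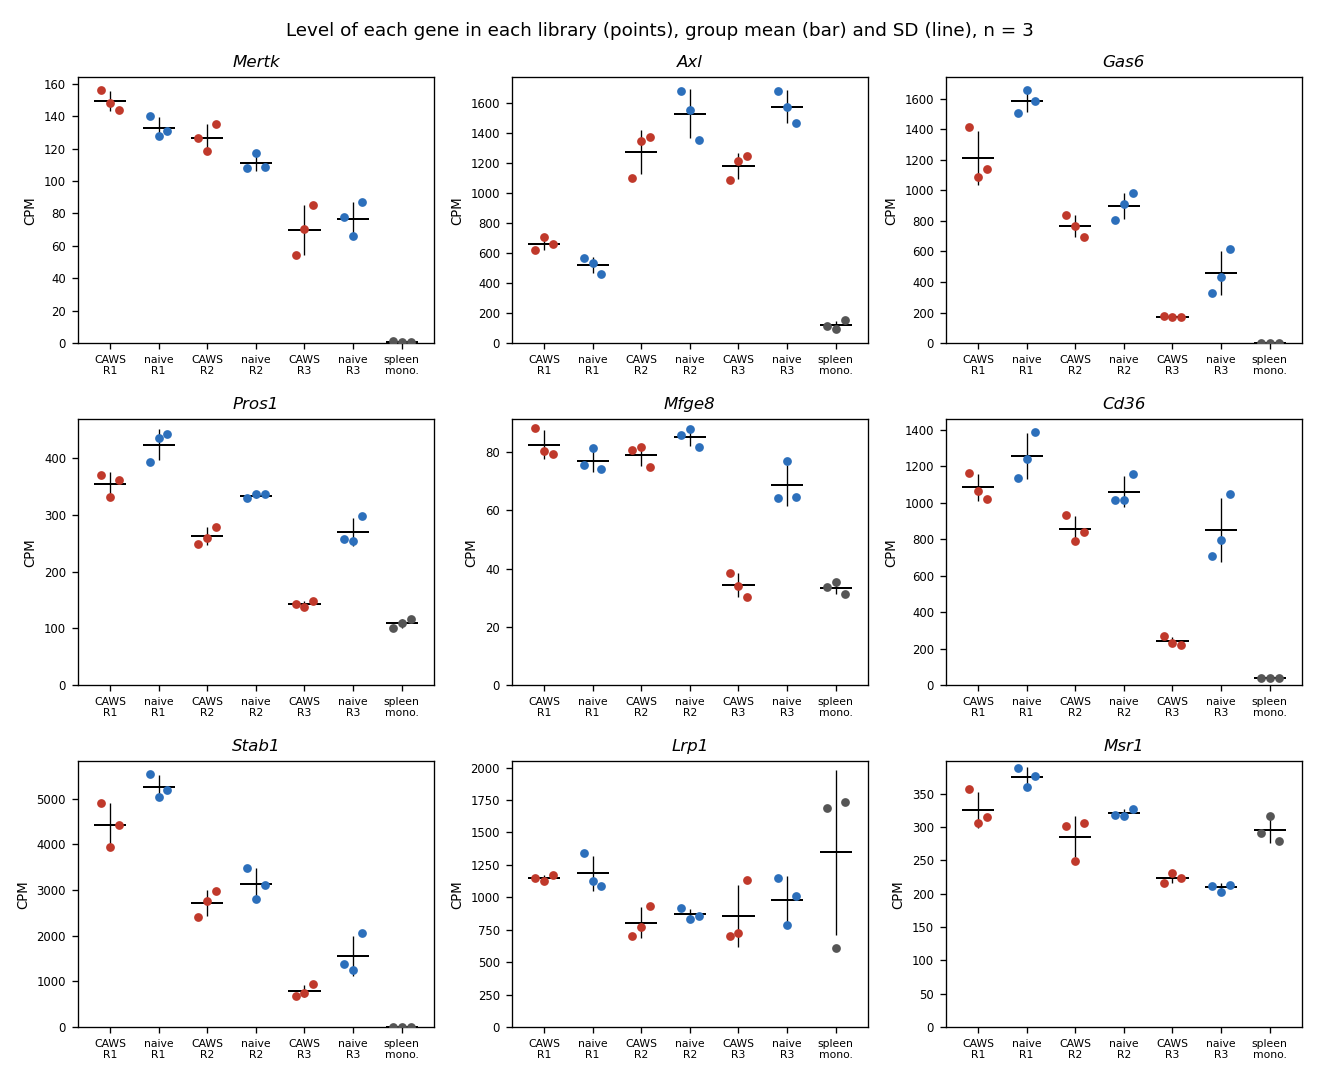
Level of each of the 9 genes in CPM (vertical axis, from 0) in the 21 libraries (points), by group (horizontal axis), with the group mean as a bar and the SD as a line (n = 3). CAWS groups are red, naive heart groups blue and monocytes grey. Cd36, Gas6, Mfge8, Stab1, Pros1 and Axl sit lower in CAWS R3 than in naive R3 with no overlap. The share of all genes without overlap was not counted. Axl is the one gene of the 9 with its highest mean in naive R3.

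Mertk (gene ID 17289, chromosome 2, 128698915 to 128803162) encodes the TAM receptor named above. It measured 156, 148 and 144 CPM in CAWS R1, against 140.3, 128 and 131 CPM in naive R1. It measured 127, 119 and 135 CPM in CAWS R2, against 108, 117 and 108 CPM in naive R2. In R3 the levels were lower, at 54.5, 70.3 and 85 CPM in CAWS R3 and 77.6, 65.9 and 86.8 CPM in naive R3. In the monocytes Mertk was close to absent, at 1.16, 0.682 and 0.729 CPM (10 to 18 counts). Its CAWS difference was 0.17 ± 0.13 in R1, 0.19 ± 0.13 in R2 and -0.13 ± 0.13 in R3 on the log2 scale, none past the test (adjusted p from 0.386 to 0.529), and the 95% interval in R3 ran from -0.40 to 0.14. Among heart groups, the differences of Mertk that passed lay between populations, as did those of Msr1. Mertk fell in naive R3 against naive R1 (log2 -0.79 ± 0.13, adjusted p = 6.78e-05) and against naive R2 (-0.54 ± 0.13, adjusted p = 0.00654). In CAWS R3 it stood below CAWS R1 by -1.09 ± 0.13 (adjusted p = 9.83e-07). Tyro3, the remaining TAM receptor, stayed under 1 CPM in every library and was not tested. Leaving out naive R3 replicate 2 took the difference of naive R3 and naive R2 to an adjusted p of 0.0533.

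Axl (gene ID 26362, chromosome 7, 25756500 to 25788924), the other TAM receptor, which prefers Gas6 as its ligand, ran the opposite way across the populations. It measured 622, 707 and 659.6 CPM in CAWS R1, against 567, 533 and 461 CPM in naive R1. It measured 1103, 1345 and 1373 CPM in CAWS R2, against 1677, 1556 and 1355 CPM in naive R2. In R3 it measured 1084, 1210.3 and 1249 CPM with CAWS, against 1683, 1576 and 1463 CPM in naive cells. Monocytes had 115, 91.4 and 151 CPM. The MHC-II high populations therefore held more Axl than R1 in both treatments: naive R3 exceeded naive R1 by log2 1.60 ± 0.14 (adjusted p = 2.32e-08), naive R2 exceeded naive R1 by 1.56 ± 0.14 (adjusted p = 1.42e-07), and naive R3 and naive R2 overlapped (0.04 ± 0.14, adjusted p = 0.895). With CAWS the gap to R1 was smaller, at 0.83 ± 0.14 for CAWS R3 and 0.94 ± 0.14 for CAWS R2. Axl fell in CAWS R3 against naive R3 by -0.41 ± 0.14, and this was the weakest of the 6 calls (adjusted p = 0.0429). It was lost (adjusted p above 0.05) on leaving out 15 of the 21 libraries singly, with the highest adjusted p, 0.221, without CAWS R3 replicate 1. The call was also lost with upper quartile scaling (adjusted p = 0.0608) and with no filter (adjusted p = 0.0614).

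The TAM ligands fell most clearly in R3. Gas6 (gene ID 14456, chromosome 8, 13465374 to 13494535) measured 179, 168 and 169 CPM in CAWS R3, against 326, 434 and 613 CPM in naive R3, with naive R3 replicate 3 the highest. That was a log2 fold change of -1.42 ± 0.19 (adjusted p = 4.22e-05), and -1.15, still past the test, without naive R3 replicate 3. It measured 1415, 1084 and 1140.2 CPM in CAWS R1, against 1509.7, 1658 and 1585 CPM in naive R1, and this lower level did not pass the test with all groups in the fit (-0.38 ± 0.19, adjusted p = 0.224). It measured 841, 765 and 698 CPM in CAWS R2, against 807, 909 and 979.7 CPM in naive R2, with overlap. Monocytes had 1.54, 2.80 and 0.448 CPM (8 to 41 counts). Among naive cells Gas6 fell stepwise with the populations: naive R3 was below naive R2 (-0.97 ± 0.19, adjusted p = 0.00144) and naive R2 below naive R1 (-0.82 ± 0.19, adjusted p = 0.00852). The first of these calls was lost when only the groups compared entered the fit (adjusted p = 0.0595), and the second without naive R2 replicate 1 (adjusted p = 0.0595).

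Pros1 (gene ID 19128, chromosome 16, 62854307 to 62929346) encodes protein S, which is also a cofactor in anticoagulation. It was the one gene of the 9 lower with CAWS at an unadjusted p under 0.05 in each of R1, R2 and R3. It measured 143, 138 and 149 CPM in CAWS R3, against 257, 254 and 298 CPM in naive R3 (log2 -0.91 ± 0.09, adjusted p = 4.37e-07). It measured 249, 260.1 and 279.6 CPM in CAWS R2, against 330, 337 and 336 CPM in naive R2 (-0.35 ± 0.09, adjusted p = 0.015). It measured 371, 332 and 362 CPM in CAWS R1, against 393, 436 and 444 CPM in naive R1 (-0.26 ± 0.09, adjusted p = 0.0758). No CAWS library reached the lowest naive library of its own population. The R2 call was lost without CAWS R2 replicate 1, CAWS R2 replicate 2 or naive R2 replicate 2, with adjusted p from 0.051 to 0.0753. Unlike Gas6, Pros1 was well detected in monocytes, at 100.2, 110.1 and 116 CPM, and CAWS R3 exceeded them by only 0.40 ± 0.09 (adjusted p = 0.00109).

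Mfge8 (gene ID 17304, chromosome 7, 79133768 to 79149060), the bridge from phosphatidylserine to integrins, had its lowest heart level in CAWS R3 and varied less among the other heart groups. It measured 38.4, 34.1 and 30.2 CPM in CAWS R3, against 64.3, 76.9 and 64.7 CPM in naive R3. Levels were 88.3, 80.3 and 79.2 CPM in CAWS R1 and 75.5, 81.5 and 74.3 CPM in naive R1. In R2 they were 80.9, 81.6 and 74.9 CPM with CAWS and 85.7, 88.1 and 81.7 CPM in naive cells. The fall in R3 was -1.004 ± 0.11 (adjusted p = 1.32e-06), which brought CAWS R3 to the range of the monocytes, at 33.6, 35.6 and 31.2 CPM. CAWS R3 and monocytes differed by 0.03 ± 0.11 (adjusted p = 0.82, 95% interval -0.20 to 0.27). In the order of the 7 group means, no neighbours among the first 5 groups differed past the test (adjusted p from 0.269 to 0.885). Neighbours in such an order lie close by construction. Naive R3, the lowest of these 5, was below naive R2, the highest, by -0.31 ± 0.10, just short of the threshold (adjusted p = 0.0501). With the pool of mice as a block in the fit, this difference passed (adjusted p = 0.0288).

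Cd36 (gene ID 12491, chromosome 5, 17781690 to 17888959), a class B scavenger receptor that also takes up fatty acids and oxidised lipoproteins, showed the greatest CAWS difference of the 9 genes. It measured 269, 229.7 and 221 CPM in CAWS R3, against 709, 795 and 1049 CPM in naive R3. It measured 1166, 1067 and 1022 CPM in CAWS R1, against 1138, 1240.2 and 1391 CPM in naive R1. It measured 935, 789.6 and 841 CPM in CAWS R2, against 1013, 1016 and 1157 CPM in naive R2. The fall in R3 was log2 -1.83 ± 0.13 (adjusted p = 2.57e-09), or 0.282 of the naive level, and it was -1.65 without naive R3 replicate 3, the highest of the naive libraries. Lower levels in R1 (-0.21 ± 0.12, adjusted p = 0.311) and R2 (-0.31 ± 0.12, adjusted p = 0.11) did not pass. Monocytes had 36.9, 37.4 and 37.6 CPM. Naive R3 was below naive R1 (-0.56 ± 0.12, adjusted p = 0.00144).

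Stab1 (gene ID 192187, chromosome 14, 31139017 to 31168651) encodes stabilin-1, which binds phosphatidylserine and modified lipoproteins. It measured 686, 746 and 936 CPM in CAWS R3, against 1381, 1244 and 2055 CPM in naive R3. It measured 4912, 3938 and 4425 CPM in CAWS R1, against 5543, 5040.4 and 5194 CPM in naive R1. It measured 2405, 2769 and 2976 CPM in CAWS R2, against 3489, 2797 and 3105 CPM in naive R2. Monocytes had 6.69, 6.55 and 1.06 CPM (19 to 104 counts). Stab1 thus descended in the same order of populations as Gas6, with naive R3 below naive R1 by -1.75 ± 0.25 (adjusted p = 3.37e-05). The CAWS fall in R3, -0.98 ± 0.24 (adjusted p = 0.0104), rested on few libraries: it was -0.73 without naive R3 replicate 3 (adjusted p = 0.0627), and adjusted p was 0.0716 without CAWS R3 replicate 1 and 0.0546 without CAWS R3 replicate 2. The R1 and R2 differences, -0.25 ± 0.24 and -0.20 ± 0.24, did not pass with all groups in the fit. The annotated gene overlaps Nt5dc2, whose counts came to 1.01% of those of Stab1 over all libraries, and whether counting used the strand is not given in the sources used here.

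Lrp1 and Msr1 were the 2 genes whose mean in monocytes lay within or above the range of the heart groups. Lrp1 (gene ID 16971, chromosome 10, 127538157 to 127621148), a large endocytic receptor that binds calreticulin on dying cells, measured 705, 725 and 1130.4 CPM in CAWS R3, against 1149, 787 and 1010.2 CPM in naive R3. It measured 1146, 1123 and 1170.4 CPM in CAWS R1, against 1342, 1125 and 1090 CPM in naive R1. It measured 705, 772 and 936 CPM in CAWS R2, against 916, 836 and 858 CPM in naive R2. In monocytes it measured 1690.3, 612 and 1733 CPM, so that 1 library decided the mean. With the 3 monocyte libraries Lrp1 did not pass in any naive population (log2 -0.18 ± 0.28 for naive R1, -0.63 ± 0.28 for naive R2, -0.45 ± 0.28 for naive R3). Without monocyte replicate 2 it was lower in all 3, by -0.52 for naive R1 (adjusted p = 0.0146), -0.97 for naive R2 (adjusted p = 8.13e-05) and -0.80 for naive R3 (adjusted p = 0.00066). That library had the lowest Lrp1 of all, so leaving it out raises the monocyte mean and narrows the spread by selection. These adjusted p-values therefore cannot decide whether Lrp1 differed. No CAWS difference of Lrp1 passed, and the 95% intervals were -0.78 to 0.38 for R3, -0.69 to 0.47 for R2 and -0.63 to 0.53 for R1.

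Msr1 (gene ID 20288, chromosome 8, 39543232 to 39642750), the class A scavenger receptor, measured 216, 232 and 223 CPM in CAWS R3, against 212, 203 and 214 CPM in naive R3. It measured 356, 306 and 316 CPM in CAWS R1, against 389, 360.3 and 376 CPM in naive R1. It measured 301, 249.8 and 306 CPM in CAWS R2, against 318, 317 and 327 CPM in naive R2. Monocytes had 291, 317 and 279 CPM, above both R3 groups: naive R3 was lower than monocytes by -0.50 ± 0.09 (adjusted p = 7.73e-05), while naive R1 was higher by 0.34 ± 0.09 (adjusted p = 0.00215). The CAWS difference was 0.09 ± 0.09 in R3, the single positive estimate of the 9 genes there, with a 95% interval from -0.10 to 0.28. Naive R3 was below naive R1 by -0.84 ± 0.09 (adjusted p = 5.35e-07).

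The CAWS effects were then compared between populations as differences of log2 fold changes. Against R1, the R3 effect was lower for 5 of the 9 genes, where 2.26% of all genes passed in either direction. The difference was -1.61 ± 0.17 for Cd36 (adjusted p = 7.36e-06), -1.10 ± 0.15 for Mfge8 (adjusted p = 0.000118) and -0.66 ± 0.13 for Pros1 (adjusted p = 0.00407). It was -1.03 ± 0.27 for Gas6 (adjusted p = 0.0459) and -0.76 ± 0.19 for Axl (adjusted p = 0.0348), whose estimates had opposite signs, -0.41 ± 0.14 in R3 and 0.35 ± 0.14 in R1. Against R2, the R3 effect was lower for 4 of the 9 genes, where 2.33% of all genes passed in either direction. The difference from R2 was -1.51 ± 0.17 for Cd36 (adjusted p = 2.61e-05) and -0.90 ± 0.15 for Mfge8 (adjusted p = 0.000989). It was -1.19 ± 0.27 for Gas6 (adjusted p = 0.0167) and -0.57 ± 0.13 for Pros1 (adjusted p = 0.0147). Between R2 and R1, edgeR, DESeq2 and limma voom each called 0 of the 9 genes (edgeR called 0.0527% of all genes), and 1, Axl, had an unadjusted p under 0.05 (-0.61 ± 0.19). These contrasts share the R3 libraries. Cd36 and Mfge8 kept both calls on leaving out any 1 of the 21 libraries. The Gas6 difference between R3 and R1 was lost on leaving out 18 of the 21 libraries singly (adjusted p up to 0.18), and also with RLE or upper quartile scaling, no filter, a stricter filter or only the groups compared (up to 0.159). The Axl difference was lost on leaving out 13 libraries (adjusted p up to 0.146). Against R2, the Gas6 difference (adjusted p up to 0.0746) and the Pros1 difference (up to 0.0842) were each lost on leaving out 6 of the 21 libraries, and with no filter (0.0874 for Gas6, 0.0946 for Pros1).

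**Figure D2:**
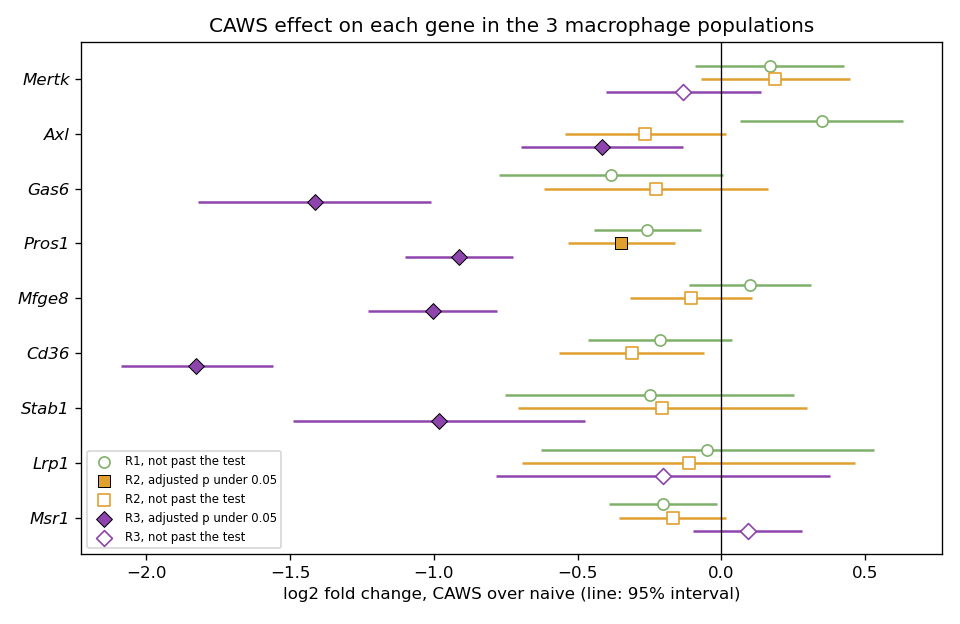
Log2 fold change of CAWS over naive cells (horizontal axis) for each of the 9 genes (rows) in R1, R2 and R3 (circles, squares and diamonds), with 95% intervals as lines and filled symbols for adjusted p under 0.05. The R3 estimates lie left of the R1 and R2 estimates for every gene but Msr1. For Cd36 (-1.83 in R3), Gas6 (-1.42), Mfge8 (-1.004) and Pros1 (-0.91) the difference passed the test against both R1 and R2.

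Within naive hearts, R3 differed from R1 in 7 of the 9 genes (23.2% of all genes passed), with Axl higher and Mertk, Gas6, Pros1, Cd36, Stab1 and Msr1 lower. R3 differed from R2 in 5, all lower: Mertk, Gas6, Pros1, Stab1 and Msr1 (12.4% of all genes passed). The Pros1 call was lost without any 1 of the naive R2 libraries or of replicates 1 and 2 of naive R3 (adjusted p up to 0.112), and the Stab1 call without naive R3 replicate 1 (0.0533) or replicate 2 (0.06). With the pool of mice as a block within each treatment, Mfge8 (-0.32, adjusted p = 0.0288) and Cd36 (-0.34, adjusted p = 0.00924) passed as well in that comparison (13.7% of all genes passed in that fit). R2 differed from R1 in 3, with Axl higher and Gas6 and Pros1 lower (7.13% of all genes passed). That Pros1 call was lost without any 1 of the naive R2 libraries or of replicates 2 and 3 of naive R1 (adjusted p up to 0.0833), and with no filter (0.0707). Stab1, at -0.75 ± 0.24 (adjusted p = 0.0715), passed without naive R3 replicate 3 (0.049) or without any 1 monocyte library (0.00186 to 0.0492), with limma voom (0.00131) and with only the groups compared (1.57e-06). Within CAWS hearts, R3 differed from R1 in 8 of the 9 genes (29.4% of all genes passed), with Axl higher and all others but Lrp1 lower. CAWS R3 differed from CAWS R2 in 7, all lower (15.3% of all genes passed), with Axl and Lrp1 not past the test. Of these calls Msr1 (-0.35 ± 0.09, adjusted p = 0.0097) was lost without CAWS R3 replicate 1 (0.132), CAWS R2 replicate 3 (0.0683) or naive R2 replicate 2 (0.051), and with no filter (0.0555). CAWS R2 differed from CAWS R1 in 2, Axl higher and Pros1 lower (3.77% of all genes passed). With the pool as a block, Gas6 (-0.66, adjusted p = 0.0331) and Cd36 (-0.34, adjusted p = 0.0166) were also lower in CAWS R2 (4.69% of all genes passed in that fit). In CAWS R3 the level of Gas6 was 0.141 of that in CAWS R1, that of Stab1 0.178 and that of Cd36 0.221.

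Against splenic monocytes, naive R1 was higher in 8 of the 9 genes (63.3% of all genes passed), naive R2 in 7 (63.6%) and naive R3 in 7, with Msr1 lower (58.9%). These shares of all genes count both directions. The contrast was steepest for Stab1, Gas6 and Mertk. In naive R1 they exceeded monocytes 1135-fold, 1031-fold and 154-fold as fitted, on the few monocyte counts given above. Cd36 was 33.7-fold higher, Axl 4.35-fold, Pros1 3.9-fold and Mfge8 2.31-fold.

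Levels can be set against each other between genes only per length, as RPKM, the CPM divided by gene length in kilobases. In CAWS R3, Axl led the 9 genes with 232 ± 17 RPKM (SD, n = 3 here and below), followed by Stab1 (98.8 ± 16.3 RPKM), Gas6 (66.2 ± 2.34 RPKM) and Cd36 (61.1 ± 6.55 RPKM). In naive R3 Axl also led, with 309.6 ± 21.6 RPKM, followed by Cd36 (217 ± 45.1 RPKM), Stab1 (195 ± 54.3 RPKM) and Gas6 (177 ± 55.9 RPKM). In naive R1, Stab1 (658 ± 32.2 RPKM) and Gas6 (611 ± 28.6 RPKM) led, and Mertk (37.4 ± 1.87 RPKM) and Mfge8 (36.3 ± 1.81 RPKM) came last. In monocytes, Lrp1 (90.3 ± 42.7 RPKM) and Msr1 (74 ± 4.81 RPKM) were the highest and Mertk (0.241 ± 0.0737 RPKM) the lowest.

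Ratios within a library compare the RNA of the TAM receptors with each other, and likewise that of their ligands. Protein was not measured. Mertk over Axl, as a ratio of RPKM, lay between 0.0719 and 0.0973 in CAWS R3, against 0.0599 to 0.0849 in naive R3. It lay between 0.126 and 0.164 in CAWS R2, against 0.0922 to 0.114 in naive R2, and between 0.299 and 0.359 in CAWS R1, against 0.342 to 0.406 in naive R1. The R3 libraries of both treatments overlapped, and so did those of R1, while all CAWS R2 ratios were above those of naive R2. Gas6 over Pros1 lay between 1.43 and 1.57 in CAWS R3, against 1.6 to 2.6 in naive R3. It lay between 3.15 and 4.27 in CAWS R2, against 3.08 to 3.67 in naive R2, with overlap, and between 3.97 and 4.81 in CAWS R1, against 4.51 to 4.84 in naive R1. In monocytes both ratios were far lower, from 0.00688 to 0.0144 for Mertk over Axl and from 0.00489 to 0.0321 for Gas6 over Pros1. The monocyte values of Gas6 over Pros1 rest on 8 to 41 Gas6 counts per library.

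**Figure D3:**
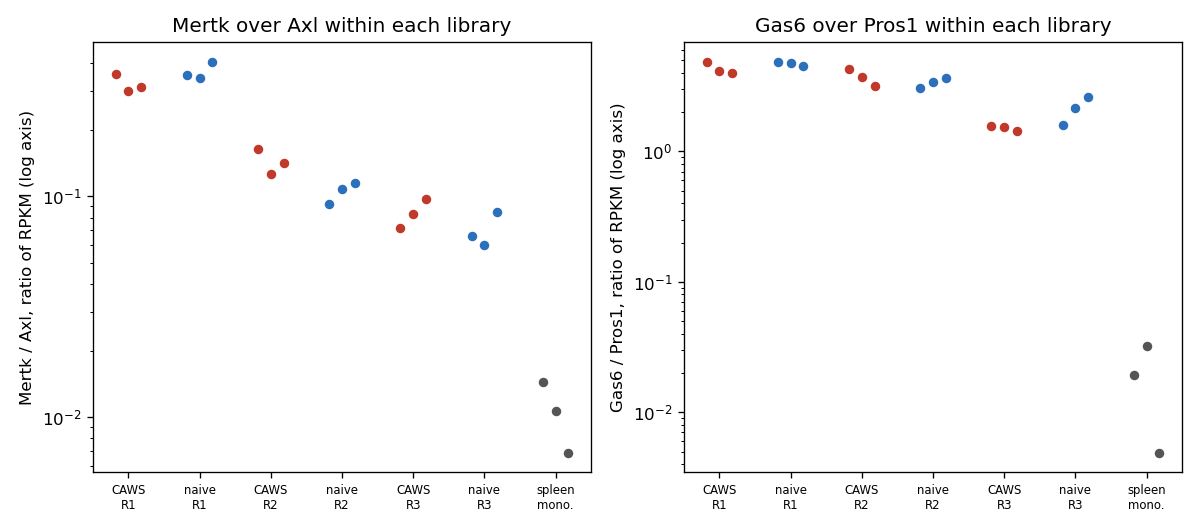
Ratio of RPKM of Mertk over Axl (left) and of Gas6 over Pros1 (right) in each library, on log axes, by group (CAWS red, naive heart blue, monocytes grey). Mertk over Axl separates R1 (0.299 to 0.406) from R2 and R3 (0.0599 to 0.164), and the CAWS R3 libraries of Gas6 over Pros1 (1.43 to 1.57) lie just under those of naive R3 (1.6 to 2.6).

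Other markers moved with CAWS in R3 beside the 6 genes that fell. Of 10 markers of resident cardiac macrophages, 8 fell in CAWS R3 against naive R3, among them Timd4 (-2.95 ± 0.32), Lyve1 (-3.14 ± 0.35) and Vsig4 (-1.94 ± 0.25), and none was at 0 in either group. Their summed level was 2881, 2809.9 and 2879.8 CPM in CAWS R3, against 4792, 5045 and 8369 CPM in naive R3. In monocytes the same sum was 3044, 2878 and 2808 CPM, so the sum alone does not set resident macrophages apart from monocytes. Of 9 monocyte markers, Ly6c2 (1.22 ± 0.29) and Chil3 (3.90 ± 0.40) rose, with sums of 3584, 4262 and 3619.8 CPM in CAWS R3, against 2672, 2599.6 and 2089 CPM in naive R3. One resident marker, F13a1, averaged 768 ± 24.3 CPM in CAWS R3, 1686 ± 740.4 CPM in naive R3 and 2856 ± 106 CPM in monocytes (SD, n = 3 each). Among the naive R3 libraries, replicate 3 was the highest in resident markers and also in Gas6, Cd36, Stab1, Pros1 and Mertk. Its Axl (1463 CPM) was the lowest of the naive R3 libraries, and its Mfge8 (64.7 CPM) was close to that of replicate 1. The part of the resident and monocyte markers in the differences of the 9 genes was not tested. Without naive R3 replicate 3, Gas6, Pros1, Mfge8 and Cd36 still fell, while Axl (-0.46, adjusted p = 0.0548) and Stab1 (-0.73, adjusted p = 0.0627) did not pass. The Axl estimate was thus no smaller than the -0.41 with all libraries.

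**Figure D4:**
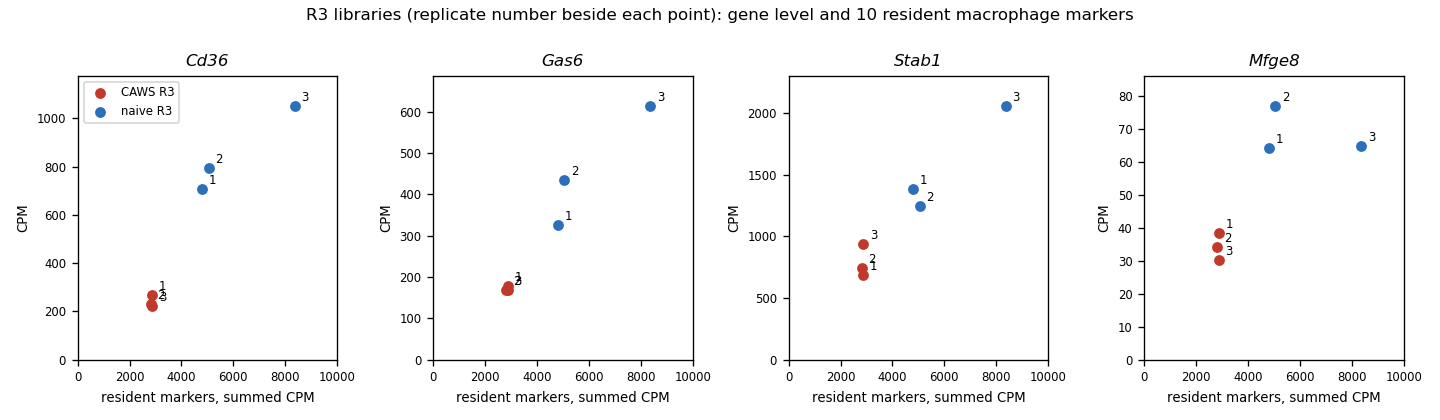
Level of Cd36, Gas6, Stab1 and Mfge8 (CPM, vertical axes from 0) against the summed level of 10 resident macrophage markers (CPM, horizontal axis) in the 3 CAWS R3 libraries (red) and the 3 naive R3 libraries (blue), with replicate numbers. CAWS R3 libraries lie at 2809.9 to 2881 CPM of the markers and naive R3 libraries at 4792 to 8369 CPM, with replicate 3 the farthest right. The monocyte libraries, which are not drawn, had 2808 to 3044 CPM of the same markers.

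The surrounding pathway was followed through 13 lists of 158 other genes, 145 of them tested. In CAWS R3, 27 (18.6%) were higher and 24 (16.6%) lower than in naive R3, where 6.7% of all genes were higher and 8.29% lower. In CAWS R2, 22 (15.2%) were higher and 8 (5.52%) lower than in naive R2, where 6.79% of all genes were higher and 3.5% lower. In CAWS R1, 26 (17.9%) were higher and 7 (4.83%) lower than in naive R1, where 6.07% of all genes were higher and 2.87% lower. No list was tested as a set.

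Among 15 other tested receptors for dying cells, 5 rose and 3 fell in CAWS R3. Timd4, a phosphatidylserine receptor of resident macrophages, averaged 8.3 ± 1.74 CPM in CAWS R3 and 64 ± 33 CPM in naive R3 (log2 -2.95 ± 0.32, adjusted p = 4.27e-06). Scarf1, a scavenger receptor that binds complement-coated dying cells, averaged 14.8 ± 2.16 CPM in CAWS R3 and 2.86 ± 0.428 CPM in naive R3 (2.37 ± 0.24, adjusted p = 6.45e-07). Scarb1, a receptor for high-density lipoprotein, rose in all 3 populations, by 0.85 ± 0.11 in R3, 0.37 ± 0.11 in R2 and 0.45 ± 0.11 in R1. In R2 the list had 1 gene higher and 1 lower, and in R1 3 higher and 1 lower. The lower gene in R2 was Itgav, the alpha v chain that Mfge8 engages (-0.68 ± 0.14, adjusted p = 0.00251), which also fell in R3 (-0.43 ± 0.14, adjusted p = 0.0399), and the lower gene in R1 was Timd4 (-0.999 ± 0.25, adjusted p = 0.0174). Cd300lb, a lipid-binding receptor, rose in R3 (0.65 ± 0.12) and R1 (0.55 ± 0.12). Itgb3, which pairs with the alpha v chain, rose in R1 by 1.67 ± 0.38, at 3.53 ± 1.18 CPM in CAWS R1 and 1.14 ± 0.455 CPM in naive R1.

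Among 9 other scavenger receptors, 2 fell and 0 rose in CAWS R3. Cd163, the haemoglobin receptor of resident macrophages, averaged 182 ± 34.7 CPM in CAWS R3 and 775 ± 223 CPM in naive R3 (-2.09 ± 0.20, adjusted p = 3.99e-07), and Colec12 fell by -2.26 ± 0.36. In R2 and R1, 2 rose and 0 fell in each. Marco, a class A relative of Msr1, rose in R1 (2.67 ± 0.39) and R2 (1.62 ± 0.38), with 11.8 ± 3.76 CPM in CAWS R1 and 1.81 ± 0.736 CPM in naive R1. Cxcl16, a membrane-bound chemokine that binds oxidised lipoprotein, rose in R1 (0.72 ± 0.10), and Olr1, another oxidised lipoprotein receptor, passed in R2 at low levels (2.11 to 2.46 CPM in CAWS R2, against 0 to 0.132 CPM in naive R2).

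Bridges and opsonins other than Gas6, Pros1 and Mfge8 included genes that rose. In CAWS R3, 4 of 12 rose and 2 fell, in R2 4 rose and 1 fell, and in R1 3 rose. Lgals3, a galectin that bridges to Mertk, averaged 653 ± 60.9 CPM in CAWS R3 and 309 ± 22.9 CPM in naive R3 (1.08 ± 0.14, adjusted p = 1.71e-05), and it also rose in R2 (2.16 ± 0.15) and R1 (1.80 ± 0.15). Anxa1 rose in all 3, by 0.71 ± 0.12 in R3, 1.93 ± 0.12 in R2 and 0.75 ± 0.12 in R1. Complement C3, whose fragments coat dying cells, also rose in all 3, by 1.92 ± 0.31 in R3, 2.18 ± 0.32 in R2 and 2.03 ± 0.32 in R1. Edil3, a relative of Mfge8 that likewise ties phosphatidylserine to integrins, fell in R2 (-0.86 ± 0.18) and in R3 (-2.20 ± 0.32), at 1.28 ± 0.187 CPM in CAWS R3 and 5.94 ± 0.838 CPM in naive R3.

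Of 17 genes of the engulfment machinery, 3 rose and 2 fell in R3, 3 rose and 1 fell in R2, and 3 rose and 2 fell in R1. The small GTPase genes Rac2 and Rhog rose in all 3 populations, Rac2 by 0.55 ± 0.09 in R3, 0.62 ± 0.09 in R2 and 0.70 ± 0.09 in R1. The adaptor gene Crk fell in all 3, by -0.46 ± 0.10 in R3, -0.56 ± 0.10 in R2 and -0.44 ± 0.10 in R1. Of 14 genes of phagosome maturation, 1 rose and 1 fell in R3 (Dnase2a by 0.40 ± 0.13, and Rubcn, needed for LC3-associated phagocytosis, by -0.67 ± 0.18), 1 fell in R2 (Slc29a3 by -0.51 ± 0.15), and edgeR called 0 in R1, with 2 at an unadjusted p under 0.05.

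Among 16 genes of lipid sensing and cholesterol efflux, 4 rose and 2 fell in R3, 3 rose in R2, and 4 rose and 1 fell in R1. Nr1h3, which encodes the sterol sensor LXR alpha, rose in all 3 populations, by 1.39 ± 0.27 in R3, 2.16 ± 0.27 in R2 and 1.05 ± 0.28 in R1. Abcg1, a cholesterol exporter, rose in R3 (0.53 ± 0.15), R2 (1.05 ± 0.16) and R1 (0.88 ± 0.16), and Mylip, which degrades the LDL receptor, fell in R3 (-0.75 ± 0.13). Of 12 partners of Cd36 and genes of fatty acid handling, 2 rose and 2 fell in R3, and 2 rose and 1 fell in each of R2 and R1. Tlr4 fell in all 3 populations, by -0.53 ± 0.14 in R3, -0.63 ± 0.14 in R2 and -0.55 ± 0.14 in R1, and Lpl, lipoprotein lipase, rose in all 3, by 0.73 ± 0.19 in R3, 0.69 ± 0.19 in R2 and 0.98 ± 0.19 in R1. Acsl1, an acyl-CoA synthetase, fell in R3 (-0.50 ± 0.11).

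Of 12 tested genes around Lrp1, 4 fell in R3, 1 rose in R2 and 2 rose in R1. Plaur, the urokinase receptor, rose in R2 (1.43 ± 0.27) and R1 (0.86 ± 0.26), and Apbb1, an adaptor of Lrp1, fell in R3 (-1.27 ± 0.21). Of 7 receptors for find-me signals, 2 rose and 2 fell in R3, with S1pr1, a receptor of sphingosine 1-phosphate, at 22 ± 1.01 CPM in CAWS R3 and 55.2 ± 14.4 CPM in naive R3 (-1.32 ± 0.16). In the same list 1 rose and 2 fell in R2, and 2 rose and 1 fell in R1, and P2ry12, a nucleotide receptor, was lower in all 3 populations (-0.33 ± 0.10 in R3, -0.47 ± 0.10 in R2, -0.34 ± 0.09 in R1).

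The remaining lists were brakes, lipid exposure, shedding and TAM signalling. Of 9 brakes on phagocytosis, 4 rose and 1 fell in R3, 3 rose in R2 and 4 rose in R1. Sirpa, the receptor of the don't-eat-me signal Cd47, rose in R3 (0.35 ± 0.08) and R1 (0.31 ± 0.08), and Cd47 itself rose in R3 (0.48 ± 0.11) and just passed in R1 (0.35 ± 0.11, adjusted p = 0.0499). Of 8 genes of phosphatidylserine exposure, 2 fell in R3, 1 rose and 1 fell in R2, and 1 fell in R1. The gene lower in all 3 was Tmem30a, a subunit of the flippases that keep the lipid inside (-0.32 ± 0.10 in R3, -0.43 ± 0.10 in R2, -0.33 ± 0.10 in R1). Of 4 genes of receptor shedding, Adam17, the protease that cuts Mertk, rose in R3 (0.37 ± 0.09) and R1 (0.36 ± 0.09). Of 10 tested TAM signalling partners, 1 rose and 1 fell in R3 (Socs1 by 1.05 ± 0.34, Pik3r1 by -0.59 ± 0.17), 1 rose in R2 (Socs3 by 0.57 ± 0.16) and edgeR called 0 in R1, with 1 at an unadjusted p under 0.05.

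Between naive R3 and naive R1, 33 (22.8%) of the 145 tested pathway genes were higher and 29 (20%) lower, where 12.5% of all genes were higher and 10.7% lower. Lgals3 (1.73 ± 0.15) and Pparg (1.85 ± 0.22) were among the higher, and Timd4 (-1.82 ± 0.26), Cd163 (-1.80 ± 0.19), Edil3 (-1.69 ± 0.20), S1pr1 (-1.71 ± 0.14) and P2ry12 (-1.30 ± 0.10) among the lower. This comparison shares the naive R3 libraries with that of CAWS R3.

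The genes with the pattern most like each of the 9 were found among 7881 genes by Pearson's r of log2 CPM over the 21 libraries. These values are a description, since the points share groups, and monocytes lie far from macrophages in most of them. Gas6 was closest to Pmp22 (r = 0.997), Folr2 and Stab1 (0.996 each), and Stab1 to Mrc1 (0.998), Gas6 and Pmp22 (0.995). Folr2 and Mrc1 stand in the list of resident macrophage markers. Mertk was closest to Pald1 (0.997), Rhoc and Scamp5 (0.995 each), and Axl to Slc13a3 (0.98), Tlr12 (0.979) and Tmem119 (0.978). Nid2 (0.983) and Otud7b (0.981) were among the 3 genes closest to Pros1. Mfge8 was closest to Selenom (0.956), Edil3 (0.95) and Slc15a2 (0.948), and Cd36 to Rhbdf1, Maged1 (0.994 each) and Sgce (0.991). Lrp1 (Sptan1 at 0.927, Utrn and Vps13b at 0.925) and Msr1 (Tlr7 at 0.869, Rab1a at 0.865, Mid1ip1 at 0.858) had less close neighbours.

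Over the 18 macrophage libraries alone, Gas6, Pros1, Mfge8, Cd36 and Stab1 ran together, with r of log2 CPM between 0.812 (Mfge8 and Stab1) and 0.978 (Gas6 and Stab1). Axl ran against the other 8, from -0.18 with Mfge8 to -0.673 with Msr1. Lrp1 was less tied to the other 7 genes, from 0.187 with Mfge8 to 0.556 with Stab1. These values describe 6 groups of 3 libraries and are not tests.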

How the data were processed

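The deposited table holds counts of reads per gene for 21 RNA-seq libraries, and the submitters' processing notes name featureCounts and mm10 for them. Which aligner, gene annotation, strand option and versions the authors used is not given in the sources used here. Gene lengths are those of the deposited table. Symbols were matched by gene ID to RefSeq genes, which left 1904 gene IDs without a symbol. The count files of the 21 samples held the same values as the table. Total counts ran from 12800136 to 23006155 per library (median 16763449). With 21 libraries in 7 groups of 3 the spread between libraries limits the precision of most values, and so it does for Gas6 (8 to 41 counts) and Stab1 (19 to 104 counts) in monocytes, where Mertk rests on 10 to 18 counts.

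Genes were kept with filterByExpr (minimum count 10, minimum total 15), which left 13275 of 27179. All 7 groups were fitted in one edgeR 4.0.16 quasi-likelihood model (R 4.3.3, TMM scaling), without a replicate term. P-values were adjusted over all tested genes by Benjamini-Hochberg within each comparison, and the threshold was 0.05. CPM used TMM-adjusted library sizes, and RPKM also divided by the gene length of the file. Intervals are at 95%. The procedure was tested on simulated data with 200 changed genes. Groups were taken from the labels. The 3 libraries of a group came from separate pools of mice.

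Same-numbered libraries of one treatment deviated together from their group means, with 18 correlations from 0.151 to 0.638 over 7064 genes, each above 0.1. Between treatments of heart cells the correlations ran from -0.296 to 0.263, and between heart groups and monocytes from -0.182 to 0.703, highest with CAWS R3. In none of these pairs of groups were all 3 above 0.1. Per the series design each pool was divided into populations, so the number was read as the pool within a treatment and as no pair across treatments. An alternative fit had a term for the pool.

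The 9 genes, the pathway lists and the marker lists were chosen with earlier results of these data known. Named were the 9 genes, up to 3 genes per pathway list with the smallest p among those past the test in each CAWS comparison (up to 2 for naive R3 against naive R1), given also in the other populations, and the 3 genes most like each of the 9, among genes with a highest group mean of at least 16 CPM. Alternatives were RLE and upper quartile scaling, no filter, a stricter filter (50 counts), DESeq2 1.42.0, limma 3.58.1 voom (sample weights), a fit to the compared groups alone, replicate blocks and leaving out each library. Leaving out together the 3 libraries that stood apart was added after seeing the data. Promoters are from RefSeq. Some genes that the rule names are not reported here.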

Additional observations from a re-analysis of the deposited data

Results flagged for a closer look

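The CAWS effect in R3 differed from that in R1 or R2, by a test of the difference itself in edgeR's quasi-likelihood fit, for 5 of the 9 genes. On the log2 scale, the R3 effect minus the R1 effect was -1.61 for Cd36, -1.10 for Mfge8, -1.03 for Gas6, -0.76 for Axl and -0.66 for Pros1. In that comparison 2.26% of all genes passed. The Gas6 call was lost on leaving out 18 of the 21 libraries singly and under 5 other settings. The Axl call was lost on leaving out 13 libraries singly. The R3 effect minus the R2 effect was -1.51 for Cd36, -1.19 for Gas6, -0.90 for Mfge8 and -0.57 for Pros1. Here 2.33% of all genes passed, and the Gas6 and Pros1 calls were each lost on leaving out 6 libraries singly and with no filter. In CAWS R3 the summed level of 10 resident macrophage markers lay between 2809.9 and 2881 CPM, against 4792 to 8369 CPM in naive R3. The same sum lay between 2808 and 3044 CPM in monocytes, and its part in these differences was not tested.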

How the results depend on the processing

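Of 71 calls of the 9 genes over 15 comparisons, 57 kept direction and threshold under every alternative and 14 were lost under at least one. Other pairs of groups, such as CAWS R3 against monocytes, were not run under the alternatives. The 28 values that changed sign belonged to differences that had not passed.

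The count of called genes moved by over 1.5 times in these cases, and the cause was not tested. The share of all genes called in the same fit was counted only with the pool as a block. Elsewhere, a move of the 9 genes cannot be told from a move of all genes. For CAWS R1 against naive R1 (0) it was 1 with DESeq2, 1 with limma voom, 4 when only the groups compared entered the fit and 1 with a replicate block over all libraries. For CAWS R2 against naive R2 (1) it was 2 with voom, 3 with only the groups compared and 2 without the 3 libraries that stood apart. For CAWS R2 against CAWS R1 (2) it was 4 with voom, 6 with only the groups compared and 4 without the 3 libraries. It was 4 with the pool as a replicate block, where 4.69% of all genes passed, beside 3.77% in the main fit. For naive R2 against naive R1 (3) it was 8 with only the groups compared. For the R3 minus R2 difference (4) it was 2 with no filter. Pathway calls for CAWS R2 (30) were 52 with voom and 50 with only the groups compared. With the pool as a block, naive R3 against naive R2 had 7 calls beside 5, and 13.7% of all genes passed, beside 12.4%. No other count of the 9 genes within a treatment changed with that block but that of CAWS R2 against CAWS R1.

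Leaving out each library in turn gave 0 to 2 calls for CAWS R1, 0 to 1 for CAWS R2, 4 to 6 for CAWS R3, 2 to 4 for CAWS R2 against CAWS R1, 1 to 4 for naive R2 against naive R1 and 3 to 6 for naive R3 against naive R2. It gave 3 to 5 for the R3 minus R1 difference and 2 to 4 for R3 minus R2. Pathway calls numbered 18 to 40 for CAWS R1, 19 to 40 for CAWS R2 and 34 to 61 for CAWS R3.

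Sign changes on the log2 scale outside single left-out libraries were Lrp1 in CAWS R3 against CAWS R2 with voom (-0.04411), Mertk in R2 minus R1 with no filter (-0.001044), and, in R2 minus R1 without the 3 libraries, Msr1 (-0.008407) and Stab1 (-0.03089). With single libraries left out, Axl ran from -0.203 to 0.002874 in CAWS R3 against CAWS R2 and from -0.04039 to 0.1127 in naive R3 against naive R2. Lrp1 ran from -0.1885 to 0.02207 in R2 minus R1, from -0.4074 to 0.02491 in R3 minus R1, from -0.3428 to 0.08597 in R3 minus R2, from -0.1192 to 0.03299 in CAWS R1, from -0.1692 to 0.2556 in CAWS R3 against CAWS R2 and from -0.516 to 0.0311 in naive R1 against monocytes. Mertk ran from -0.2974 to 0.06405 in CAWS R3 and from -0.02939 to 0.07087 in R2 minus R1, where Msr1 ran from -0.01892 to 0.1264 and Stab1 from -0.02646 to 0.1341.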
